A study of Mus musculus with 6 samples.

Results

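The circadian clock genes Per1, Per2, Per3, Cry1, Cry2, Clock, Arntl, Nr1d1, Nr1d2 and Dbp were followed in mouse retina at postnatal day 21. All probe sets annotated to these 10 genes, of 18193 genes named on the array, were taken, which gave 23 of the 45037 probe sets that are not controls. RNA was measured on 6 short-oligonucleotide expression arrays, 3 of wildtype retina from C57Bl/6 mice and 3 labelled ERRβ -/- knockout from C57Bl/6 x Sv129 mice. ERRβ is the orphan nuclear receptor encoded by Esrrb. Each sample held 2 pooled retinas, both sexes were mixed, and all mice were kept on standard chow under equal hours of light and dark. Genotype and strain background differ together and cannot be told apart. The labels give neither the hour of collection nor whether replicates came from separate litters, so p-values measure only the spread between these samples. The title of the series concerns rod photoreceptor survival, and the comparison for the clock genes was whether their levels differed between the 2 genotypes at the time the retinas were taken.

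The core clock is a feedback loop of transcription factors. CLOCK and the product of Arntl (BMAL1) bind E-box elements and activate the Per and Cry genes, whose proteins return to the nucleus and repress that activity. CLOCK and BMAL1 also drive Nr1d1 and Nr1d2, nuclear receptors that repress Arntl through RORE elements, and Dbp, an activator that binds D-box elements. In rhythmic tissues Arntl transcripts peak in antiphase to those of Nr1d1 and Dbp, the Per transcripts peak after these, and Cry1 peaks later still. The mammalian retina holds its own clock, which takes part in dopamine and melatonin rhythms and in the daily adjustment of photoreceptor sensitivity.

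The elements named above were searched as letters on both strands of RefSeq promoter windows of build GRCm38.p6 that run from 250 bases before to 50 bases after an annotated start. Windows were found for 9 of the 10 genes, 13 in all, and none for Per2. The E-box CACGTG was in 2 of the 13 member windows, of Per1 and Cry1, and in 7.15% of all 32851 windows. The D-box TTATGNAA was in 2 of the 13, of Per1 and Per3, with 3.38% of all windows. The RORE core AGGTCA was in 4 of the 13, of Per1, Clock, Arntl and Nr1d2, with 16.3% of all. The cyclic AMP response element TGACGTCA was in no member window and in 1.79% of all. A match is a description of the letters and not a binding site. The 250 bases upstream of the start are shown for the 3 genes with an E-box or D-box match, 5′ to 3′ on the gene's strand, with matches in capitals, because Per3 holds the probe set that passed the test and Per1 and Cry1 are the members with the E-box, neither of which passed.
Per1 (chr11:69098699-69098948, plus strand): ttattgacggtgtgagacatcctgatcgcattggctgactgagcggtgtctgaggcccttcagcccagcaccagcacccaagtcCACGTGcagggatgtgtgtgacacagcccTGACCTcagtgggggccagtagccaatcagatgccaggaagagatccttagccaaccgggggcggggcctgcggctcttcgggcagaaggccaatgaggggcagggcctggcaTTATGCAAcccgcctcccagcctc
Per3 (chr4:151044666-151044915, minus strand): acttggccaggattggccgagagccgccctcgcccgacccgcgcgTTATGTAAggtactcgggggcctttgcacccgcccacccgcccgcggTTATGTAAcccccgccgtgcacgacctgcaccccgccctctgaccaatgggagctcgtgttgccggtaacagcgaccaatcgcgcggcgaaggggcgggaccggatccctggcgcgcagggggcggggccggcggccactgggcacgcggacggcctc
Cry1 (chr10:85185055-85185304, minus strand): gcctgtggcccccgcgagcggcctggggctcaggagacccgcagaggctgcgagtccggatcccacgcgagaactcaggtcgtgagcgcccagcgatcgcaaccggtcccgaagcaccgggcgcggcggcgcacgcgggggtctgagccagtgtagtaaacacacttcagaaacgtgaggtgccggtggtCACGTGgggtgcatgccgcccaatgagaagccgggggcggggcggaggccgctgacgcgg
The Per1 sequence is from 1 of its 2 windows, and the other held no match. In the Per1 sequence the E-box begins 166 bases, the RORE core 137 bases and the D-box 24 bases before the start. The 2 D-boxes of Per3 begin 205 and 158 bases before the start and share the letters TTATGTAA. The E-box of Cry1 begins 60 bases before it.

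The arrays form 2 sets. Replicates 1 and 2 of each group, the first set, had been scaled to a trimmed mean signal near 500, and replicate 3 of each group, the second set, to one near 150. Signals are therefore compared only within a set. Log2 differences are labelled knockout minus wildtype over n = 3 arrays a group, each given ± its standard error (SE) and with a Benjamini-Hochberg adjusted p over 27022 probe sets kept by a filter on low signal, from a limma fit with the scaling set as a block. All 23 clock probe sets passed the filter. Rod genes marked the tissue as retina. Of 10 listed, 9 were measured. Sag, rod arrestin, averaged 48933 over the wildtype and 43202 over the labelled knockout arrays of the first set. In the second set Sag read 7551 in wildtype and 7566 in labelled knockout. Marker transcripts of other eye tissue also differed between the groups. Whether the amount of such tissue differed was not tested. Beside 2.75% of all genes that passed, 11 of 12 measured lens genes rose and none fell. Their summed signal was 2548 and 3417 in the wildtype against 49729 and 58641 in the labelled knockout arrays of the first set, and 7058 against 39713 in the second set. Of 9 measured genes of pigment epithelium and choroid 4 rose and none fell, with sums of 31582 and 32027 against 36199 and 42670, and 925 against 1653. Among 9 rod genes none passed (5 had an unadjusted p below 0.05; limma), with a median of -0.25, and among 10 inner retinal genes none passed (3 had an unadjusted p below 0.05; limma), with a median of 0.01. The rod median was -0.25 in the first set and 0.01 in the second set, and 3 of the 9 rod genes had the same direction in both. The inner retinal median was 0.05 in the first set and -0.06 in the second set. Of all kept probe sets 20.4% had an unadjusted p below 0.05 in limma. The ratio of 3′ to 5′ signal of Actb was 1.83 to 2.32 in wildtype and 1.66 to 1.82 in labelled knockout arrays. That of Gapdh overlapped between the groups, with 0.71 to 0.78 in wildtype and 0.72 to 0.73 in labelled knockout arrays. The part of these tissue markers and ratios in the clock gene differences was not tested. The retina was measured whole, so fewer cells of a type and less RNA per cell cannot be told apart.

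Of the 23 clock probe sets 1, for Per3, passed the test and was lower in the arrays labelled knockout. Of all kept probe sets 2.25% passed, 1.22% as lower and 1.04% as higher. An unadjusted p below 0.05 was reached by 10 of the 23 and by 20.4% of all. All 10 probe sets of the 3 Per genes had a negative log2 difference, from -0.34 to -1.37, of which 9 did not pass. Probe sets of 1 gene are not independent readings. The 5 clock probe sets that lay under the array median on at least 1 array were all of Per2 or Per3. Cry1, Cry2, Nr1d1, Nr1d2 and the brighter probe sets of Arntl and Dbp lay between -0.10 and 0.18. Taking 1 probe set per gene, the kept one with the highest mean, the median over the 10 genes was -0.09, beside 0.02 over all 12536 genes, and 1 of the 10 passed, beside 2.75% of all genes. The median turned to 0.0056 with arrays centred on their median and was -0.17 in the arrays scaled near 500 alone. Centring shifts every log2 difference by the same amount, and near 500 it took the median of all genes from 0.02 to 0.22. In 9 of 23 probe sets both labelled knockout arrays of the first set were below both wildtype arrays and the second set had the same direction, a pattern found in 17.2% of all kept probe sets. Of these 9, 1 belonged to Per1, 3 to Per2, 2 to Per3, 2 to Clock and 1 to Nr1d2. The reverse pattern held for 1 probe set, of Arntl, and for 16.4% of all, which makes 10 of 23 separated in either direction beside 33.6% of all.

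**Figure D1:**
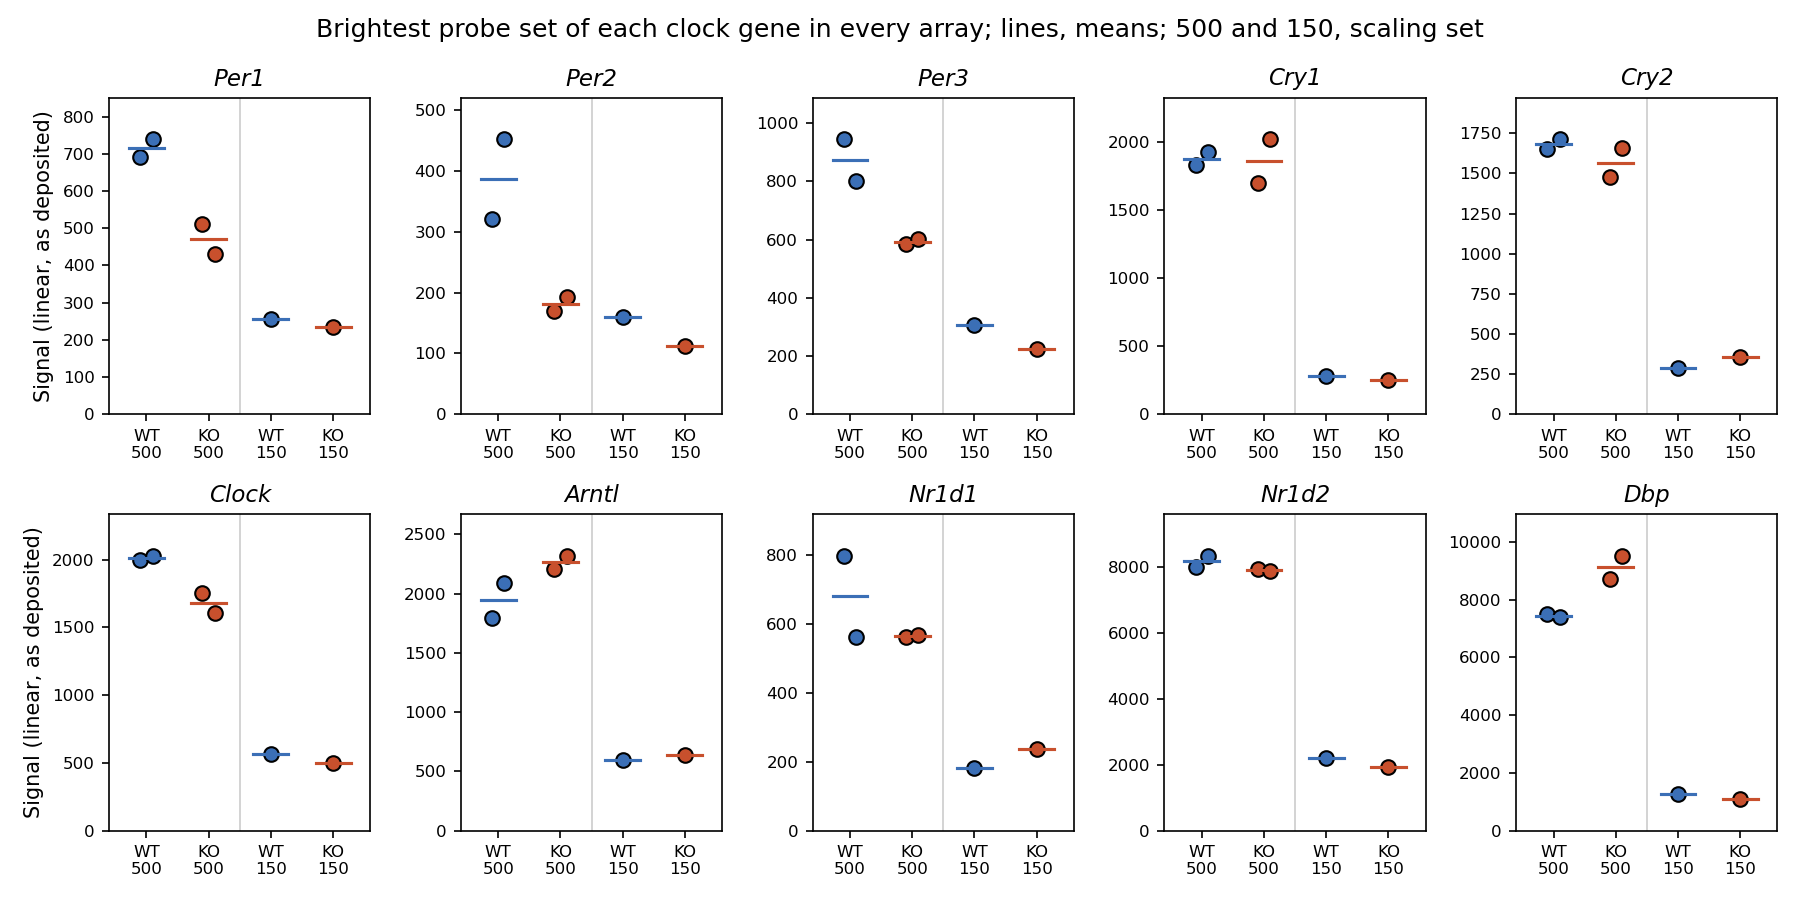
Signal of the brightest probe set of each clock gene on a linear scale, 1 point per array and lines for means, for wildtype (WT, blue) and labelled knockout (KO, orange) arrays in the sets scaled near 500 (2 arrays per group) and near 150 (1 per group). Per1, Per2, Per3, Clock and Nr1d2 are lower in KO in both sets. Cry1 is lower in KO in the second set, while its groups overlap in the first set. Arntl is higher in both, and Dbp is higher in KO in the first set and lower in the second set.

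Per3, a period gene whose loss alters the clock mildly, was the member that passed. Its brightest probe set, 1421087_at, read 944 and 800.4 in wildtype against 585 and 601 in labelled knockout arrays of the first set, and 307 against 225 in the second set. The groups did not overlap in the first set, and the single pair of the second set had the same direction. The log2 difference was -0.52 ± 0.11 (adjusted p = 0.0478), 1.43-fold lower, with -0.55 in the first set and -0.45 in the second set. This call lies at the threshold and was lost with a replicate block (adjusted p = 0.105), without the filter on low signal (0.0669), with arrays centred on their median (0.133) and when any of the 4 arrays of the first set was left out (0.177 to 0.215, without wildtype replicate 2 and without wildtype replicate 1). The call was also lost with quantile normalization within sets (adjusted p = 0.0502, limma), without a variance trend (0.238) and without a block for the scaling set.

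The 5 other Per3 probe sets had negative differences that did not pass. The second brightest, 1458176_at, read 634 and 538 in wildtype against 244 and 263 in labelled knockout arrays of the first set, but 351 against 384 in the second set. It was thus 2.31-fold lower in the first set and slightly higher in the second, with an overall log2 difference of -0.76 ± 0.24 (adjusted p = 0.125). Probe set 1441445_at had the same change of sign, with -0.61 in the first set and 0.21 in the second set. The remaining 3 were lower on average in both sets, but for 1460662_at and 1421086_at the groups overlapped in the first set. Probe set 1442243_at was under the array median in 2 of 6 arrays and 1460662_at in 4. The dimmest, 1421086_at, had the largest difference of any clock probe set, -1.37 ± 0.49 (adjusted p = 0.164), but read as low as 10.04 in labelled knockout replicate 3 and was under the array median in 4 of 6 arrays.

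Per2, a repressor of CLOCK and BMAL1 and a main period gene, had the largest difference among the brightest probe sets of the members. Probe set 1417602_at read 322 and 452 in wildtype against 170.1 and 193 in labelled knockout arrays of the first set, and 160 against 112 in the second set. Each labelled knockout array was below each wildtype array of its set. The log2 difference was -0.88 ± 0.20 (adjusted p = 0.0543), a 1.85-fold lower level that just missed the threshold and passed when the filter was raised to the 60th percentile (adjusted p = 0.0405). Of the other 2 Per2 probe sets, 1457350_at had -0.64 ± 0.25 (adjusted p = 0.2) and 1417603_at -0.55 ± 0.31 (adjusted p = 0.342), and both were likewise lower in both sets. They were dimmer, and 1417603_at lay under the array median in all 6 arrays.

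Per1, the period gene that responds fastest to light and hormones, read 692 and 739 in wildtype against 512 and 431 in labelled knockout arrays of the first set. The values in the second set were 255 and 235. The groups did not overlap in the first set, where the log2 difference was -0.61, and the single pair of the second set had -0.12. The overall log2 difference was -0.44 ± 0.14 (adjusted p = 0.125) from its single probe set.

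Among the cryptochromes, which repress CLOCK and BMAL1 together with the PER proteins, neither gene passed. Cry1 read 1828 and 1922 in wildtype against 1695 and 2017 in labelled knockout arrays of the first set, and 283 against 248 in the second set. The log2 difference was -0.08, with a 95% interval of -0.30 to 0.15, and it turned to 0.020 with arrays centred on their median. Cry2 read 1650 and 1713 against 1480 and 1656, and 288 against 355, so its direction differed between the sets. Its difference was 0.03, with an interval of -0.21 to 0.28.

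The activators Clock and Arntl had differences of opposite sign in their brightest probe sets. Clock probe set 1418659_at read 1995 and 2031 in wildtype against 1751 and 1604 in labelled knockout arrays of the first set, and 561 against 498 in the second set, a log2 difference of -0.23 ± 0.083 (adjusted p = 0.162). The largest difference among the 4 Clock probe sets was in 1435775_at, which read 1108 and 983 against 709 and 724, and 504 against 434. This was -0.43 ± 0.11 (adjusted p = 0.0709). The other 2 had -0.15 and -0.20, the first with a change of sign between the sets. Arntl probe set 1425099_a_at read 1797 and 2091 in wildtype against 2208 and 2321 in labelled knockout arrays of the first set, and 597 against 638 in the second set. The groups did not overlap in the first set, and the overall log2 difference was 0.18 ± 0.090 (adjusted p = 0.294). The dim second probe set of Arntl, 1457740_at, went the opposite way in the first set (-0.52) and had 0.87 in the second set.

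Among the targets of CLOCK and BMAL1 outside the Per and Cry genes, Nr1d1, Nr1d2 and Dbp, no probe set passed. Nr1d1, which encodes REV-ERBα, read 798 and 561 in wildtype against 562 and 567 in labelled knockout arrays of the first set, and 181 against 235 in the second set. The first set overlapped and the second had the opposite sign, with a log2 difference of -0.04 and a 95% interval of -0.43 to 0.35. It turned to 0.057 with arrays centred on their median. Nr1d2, which encodes REV-ERBβ, read 8009 and 8347 against 7923 and 7868, and 2216 against 1914, in its brighter probe set, a difference of -0.10 ± 0.071 (adjusted p = 0.445). Its second probe set had -0.03, and turned to 0.069 with centred arrays. Dbp had the largest positive differences of the members in the first set. Probe set 1418174_at read 3471 and 3610 in wildtype against 4887 and 4923 in labelled knockout arrays of the first set, but 423 against 408 in the second set. The second, 1438211_s_at, read 7508 and 7380 against 8718 and 9524, and 1277 against 1102. Over all arrays the log2 differences were 0.30 ± 0.11 (adjusted p = 0.17) and 0.12 ± 0.10 (adjusted p = 0.548).

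Within the 4 arrays of the first set alone, 2 per group, 7 of 23 clock probe sets passed, beside 13.7% of all probe sets. Of these, 5 were lower (7.68% of all) and 2 higher (6.05% of all). Those that fell were Per1 (-0.61 ± 0.14, adjusted p = 0.0164), Per2 1417602_at (-1.07 ± 0.23, adjusted p = 0.0109), Per3 1421087_at (-0.55 ± 0.13, adjusted p = 0.0158), Per3 1458176_at (-1.21 ± 0.17, adjusted p = 0.00103) and Clock 1435775_at (-0.54 ± 0.11, adjusted p = 0.0102). Both Dbp probe sets rose, 1418174_at by 0.47 ± 0.072 (adjusted p = 0.00186) and 1438211_s_at by 0.29 ± 0.072 (adjusted p = 0.0219). The period genes and Dbp thus moved in opposite directions in this set. The scaling bears on these sizes, since the array medians of labelled knockout were lower in the first set and centring them adds 0.19 to every log2 difference there. With centring, Per1, Per2 1417602_at, Per3 1458176_at and Clock 1435775_at still passed as lower and Dbp as higher, Per3 1421087_at did not (adjusted p = 0.0565), and Arntl 1425099_a_at passed as higher (0.42, adjusted p = 0.0116). The lower calls were then 4 against 4.57% of all and the higher calls 3 against 19.7% of all. The second set has 1 array per group and no test.

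**Figure D2:**
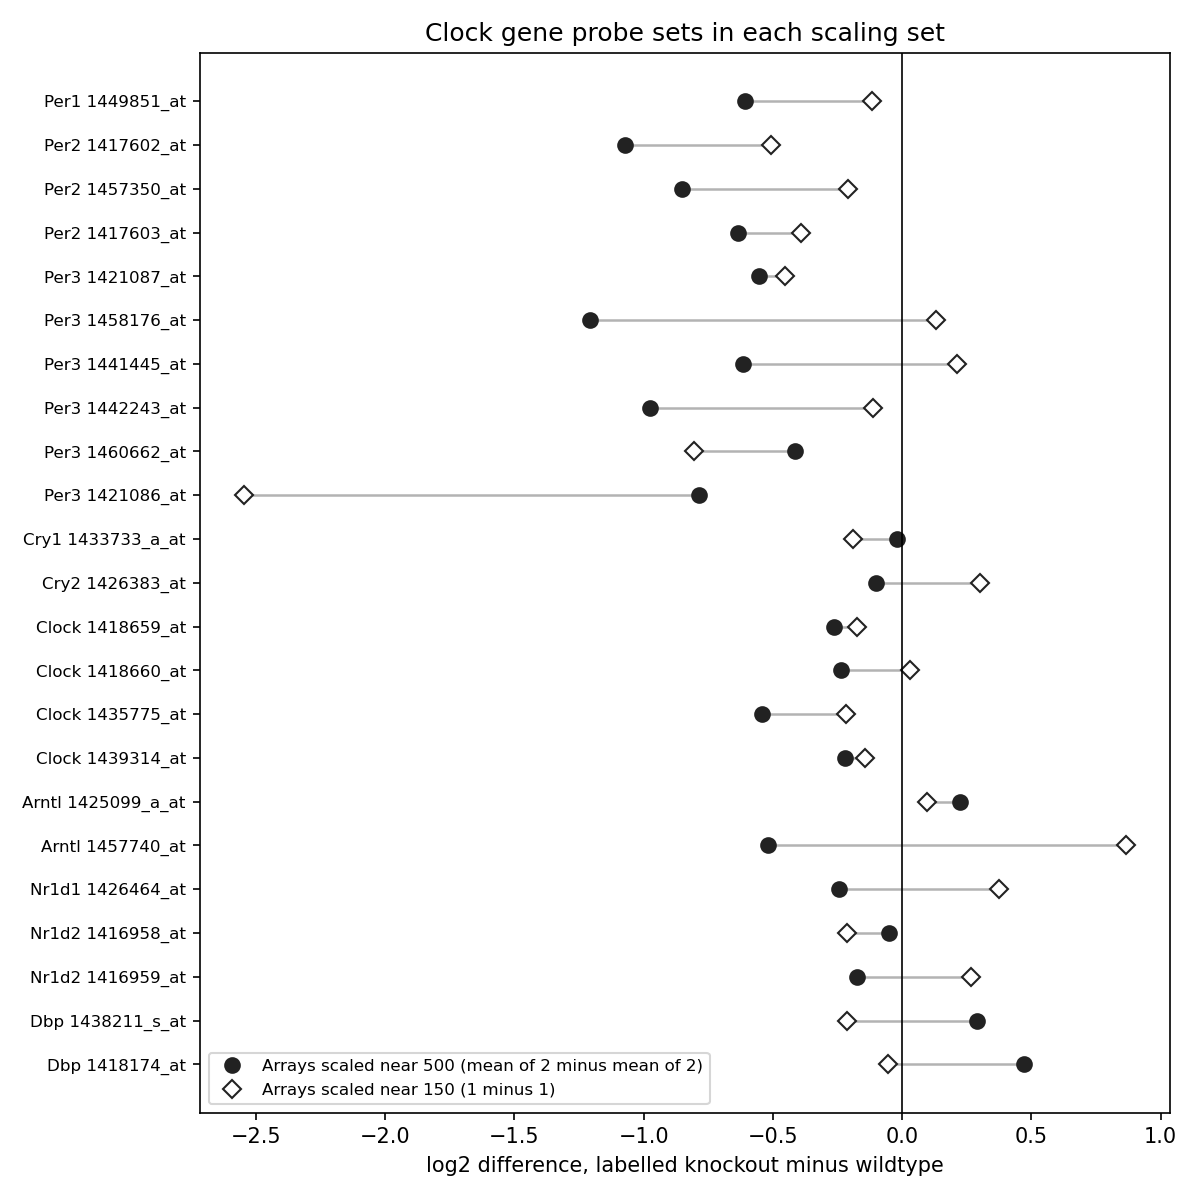
Log2 difference of each of the 23 clock probe sets, labelled knockout minus wildtype, in the arrays scaled near 500 (filled circles) and those scaled near 150 (open diamonds). All 10 Per probe sets are negative in the first set and 8 of them in the second set, and both Dbp probe sets change sign between the sets.

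In 9 of 23 clock probe sets the sign of the difference was not the same in both scaling sets, as in 45.4% of all kept probe sets. They were 2 of Per3, 1 of Clock, 1 of Arntl, 1 of Nr1d2, both of Dbp and those of Cry2 and Nr1d1. A fit with a term for the difference between the sets, added after the values were seen, found it past the threshold for Per3 1458176_at alone (-1.34 ± 0.24, adjusted p = 0.0372), beside 1.19% of all probe sets. The second set has 1 array per group, so the spread in this fit comes from the 4 arrays of the first set alone and that of the second set is assumed to be the same. For Dbp this term was 0.52 ± 0.13 (adjusted p = 0.0931) and 0.51 ± 0.12 (adjusted p = 0.0971), which did not pass.

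Set out by their usual daily phase, the members whose transcripts follow CLOCK and BMAL1 activity most directly (Per1, Per2, Per3, Nr1d1, Nr1d2 and Dbp) had a median log2 difference of -0.27, with -0.40 in the first set and -0.21 in the second set. These genes were split. The Per genes had -0.44 (Per1), -0.88 (Per2) and -0.52 (Per3), while Nr1d1 had -0.04, Nr1d2 -0.10 and Dbp 0.12. Arntl, Clock and Cry1, which peak later or in antiphase, together with the Clock relative Npas2, which is not among the 10 genes, had a median of 0.05, with 0.10 and -0.04. Without Npas2, whose readings were low, that median was -0.08, with -0.02 in the first set and -0.17 in the second set. These medians get no test, as the genes were chosen with results known. Of the 6 genes named first, 5 were lower in the first set and 5 in the second set, with Dbp the exception in the first set and Nr1d1 in the second set. The arrays come from 1 age and the labels do not state the hour of collection, so a difference in clock phase and a difference in level at one phase cannot be told apart.

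The other genes of the clock are given by list, and their counts stand beside the 2.75% of all genes that passed. Of 11 measured clock transcription factors outside the 10 genes none passed (2 had an unadjusted p below 0.05; limma), with a median of -0.17. Rorb, a retinoic acid receptor-related orphan receptor with a role in retinal development, had -0.60 ± 0.16 (adjusted p = 0.0894), with -0.87 in the first set and -0.05 in the second set. Hlf, a D-box binding relative of Dbp, had -0.19 ± 0.076 (adjusted p = 0.209), and Rora, an activator at RORE elements, -0.17 ± 0.11 (adjusted p = 0.407). Of 17 measured genes for enzymes and other partners that modify clock proteins 1 fell and none rose, with a median of -0.14. That gene was Usp2, a deubiquitinase whose transcripts cycle in many tissues. It averaged 3455 over the wildtype and 1908 over the labelled knockout arrays of the first set, and read 1256 against 1091 in the second set, a log2 difference of -0.64 ± 0.14 (adjusted p = 0.0487). The phosphatase gene Ppp1cb had -0.31 ± 0.077 (adjusted p = 0.0729) and Usp7, another deubiquitinase gene, -0.23 ± 0.075 (adjusted p = 0.137).

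Of 11 measured clock output genes none passed (2 had an unadjusted p below 0.05; limma), with a median of -0.05. Insig2, a regulator of sterol synthesis, had 0.38 ± 0.091 (adjusted p = 0.065), Noct, the deadenylase-like nocturnin gene, -0.25 ± 0.089 (adjusted p = 0.161) and Fbxo21 -0.18 ± 0.098 (adjusted p = 0.344). Of 11 measured genes known for rhythm or light response in the retina 1 fell and none rose, with a median of -0.23. This was Drd4, the dopamine receptor gene of photoreceptors, whose transcripts follow a daily rhythm. It averaged 6142 over the wildtype and 4838 over the labelled knockout arrays of the first set and read 692 against 462 in the second set, a log2 difference of -0.42 ± 0.084 (adjusted p = 0.0367). The rod transducin gene Gnat1 had -0.25 ± 0.093 (adjusted p = 0.182) and the cone opsin gene Opn1sw 0.28 ± 0.11 (adjusted p = 0.186). In the first set Gnat1 had -0.37 and Opn1sw 0.43, and in the second set they had 0.01 and -0.025. With a replicate block neither Usp2 (adjusted p = 0.0845) nor Drd4 (adjusted p = 0.0833) passed, and with arrays centred on their median they had 0.0881 and 0.218.

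**Figure D3:**
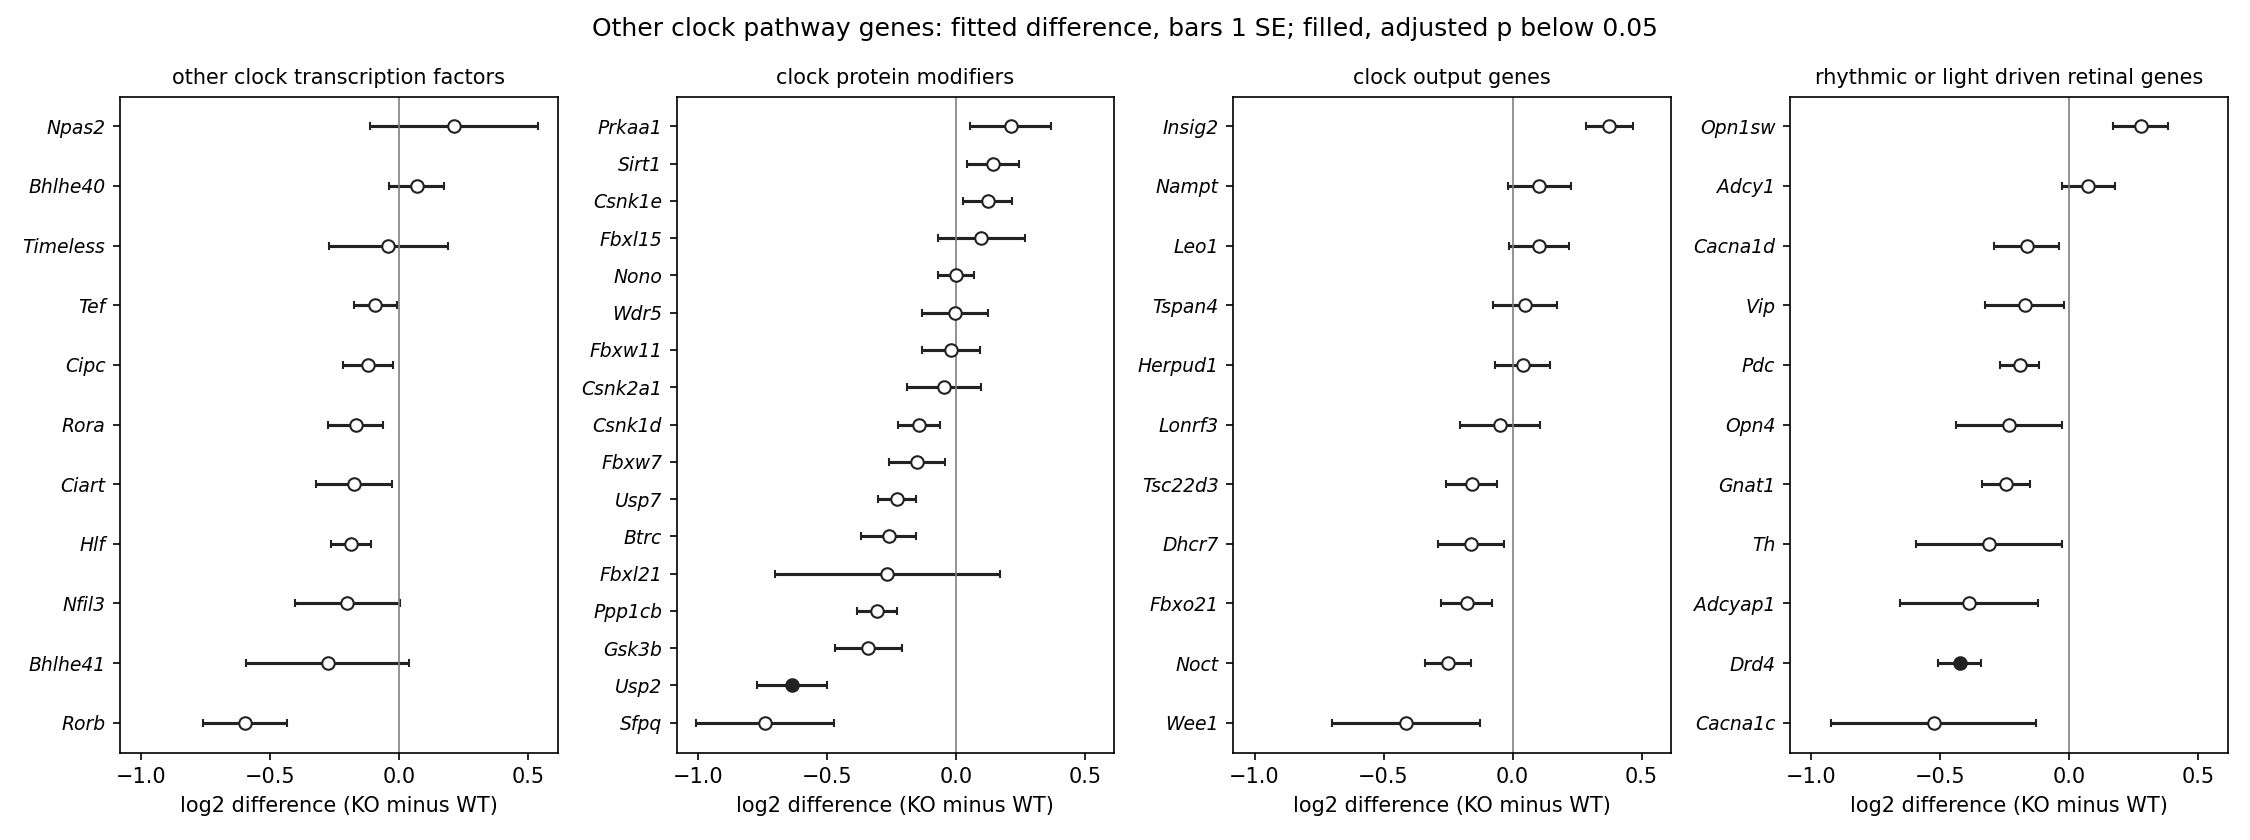
Fitted log2 difference of the other clock pathway genes, labelled knockout minus wildtype over 3 arrays per group, with bars of 1 SE and filled points for adjusted p below 0.05. Usp2 at -0.64 and Drd4 at -0.42 are the filled points.

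Immediate early genes, a class that responds to light and stress as Per1 does, were measured beside the clock genes. Of 8 measured, with a median of -0.56, 1 fell and none rose, beside 2.75% of all genes that passed. Fos averaged 2633 over the wildtype and 816 over the labelled knockout arrays of the first set and read 597 against 317 in the second set, a log2 difference of -1.42 ± 0.18 (adjusted p = 0.00577). Dusp1, a phosphatase gene, had -0.52 ± 0.12 (adjusted p = 0.0635) and Fosl2 -1.06 ± 0.26 (adjusted p = 0.0668). Their part in the Per1 values was not tested.

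The genes whose readings tracked those of Dbp most closely, over 6 arrays after removal of each scaling set's mean, were Rpn1, Man2c1, Gm17597, Dipk1b and Pygb. Their Pearson correlations with the brighter Dbp probe set, out of 12535 genes compared, were 0.999, 0.997, 0.995, 0.994 and 0.994. The 6 points share genotype and array set, so these values describe likeness only, and no other clock gene was among the 5.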

How the data were processed

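The authors deposited linear intensities, 1 per probe set and array. The submitters' processing notes list GCOS 1.4 and MAS5 but not what each did. Detection calls were not used here. The file held 45101 probe sets, of which 64 controls were left out. Signals were transformed to log2 without further normalization. Probe sets with a mean log2 signal at or above the 40th percentile (a geometric mean of 54.5) were kept. Groups were compared with limma 3.58.1 in R 4.3.3 (variance trend, two-sided, threshold 0.05), with the scaling set, read from each array's trimmed mean, as a block. Array data carry no read depth, and the number of arrays limits the precision.

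Names came from a platform annotation, in which 34945 probe sets had 1 symbol, 932 several and 9160 none. Symbols were updated by gene ID. Of 125 list entries 116 were on the array. Named were all member probe sets, and in each other list of clock and immediate early genes the members that passed or, with fewer than 3, the 3 with the smallest p. For Dbp the 5 most alike genes were named. The members and lists were chosen with earlier results of these data known.

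Deviations from the group mean correlated between same-numbered samples (0.57, 0.67 and 0.843), but these deviations hold the difference between the scaling sets. Within the arrays scaled near 500 the correlation was 0.0153, so no pairing by replicate number was seen there. With the replicate number as a block 2 residual degrees of freedom remain, and with the scaling set 3.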

Additional observations from a re-analysis of the deposited data

Results flagged for a closer look

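For Per3 probe set 1458176_at a term for the scaling set, added after the values were seen, passed the test. Its log2 difference, labelled knockout minus wildtype, was -1.21 for the 4 arrays scaled near 500 but 0.13 for the 2 scaled near 150, and the difference between these of -1.34 ± 0.24 passed the test (adjusted p = 0.0372, limma with a term for the scaling set by group). The arrays scaled near 150 are 1 per group, so the spread comes from the other 4 alone and is assumed to be the same. The brightest Per3 probe set had -0.55 and -0.45 in the same sets.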

How the results depend on the processing

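The count of clock probe sets called was 1, and it was 1 with 16 added to every signal and 2 with the filter at the 60th percentile. It was 0 without a block for the scaling set, with a replicate block, with no filter, with arrays centred on their median, with quantile normalization within sets and without a variance trend, with 0, 9, 10, 9, 10 and 8 probe sets at an unadjusted p below 0.05 in limma. It was 7 in the arrays scaled near 500 alone, and 7 when these were also centred, a setting chosen after the data were seen. Leaving out 1 array gave 0 to 7 calls. The count was 0 without any 1 of replicates 1 and 2 of either group (4 to 6 at an unadjusted p below 0.05) and 7 without wildtype or labelled knockout replicate 3. Without 1 replicate 3 array the other is alone in its set and adds nothing to the contrast. These fits thus repeat the log2 differences of the arrays scaled near 500 alone and are not separate results. Over all probe sets the count of 609 became 0 without a block (118 at an unadjusted p below 0.05), 200 with a replicate block, 405 with no filter, 955 at the 60th percentile, 284 with centring, 19 without a variance trend, 3710 near 500 alone, 6569 near 500 with centring, and 79 to 3702 when 1 array was left out. For the other clock pathway genes the count of 2 became 0 without a block, with a replicate block, with no filter, with centring and without a variance trend (0, 12, 13, 6 and 5 at an unadjusted p below 0.05), 3 at the 60th percentile, which keeps fewer genes, 11 near 500 alone, 10 near 500 with centring, and 0 to 11 when 1 array was left out (8 to 10 at an unadjusted p below 0.05 where it was 0). Beyond the scaling shift and the fewer arrays or genes of such fits, the cause was not tested.

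The median over the 10 genes of -0.09 turned to 0.0056 with arrays centred on their median and to 0.021 near 500 with centring, and ran from -0.17 to -0.071 in the other settings run, with -0.17 near 500 alone and without either replicate 3. Centring shifts all genes alike, and near 500 with centring the median over all genes was 0.22. The gap between the clock groups of -0.33 was -0.20 at the 60th percentile, where the dim Npas2 was no longer kept. It was -0.13 in the arrays scaled near 150, where the kept genes and brightest probe sets were chosen anew, and -0.50 to -0.21 when 1 array was left out. In 17 of 23 clock probe sets no setting with a test changed the sign. With arrays centred on their median Cry1 had 0.020, Arntl 1457740_at 0.039, Nr1d1 0.057 and Nr1d2 1416959_at 0.069. With quantile normalization Arntl 1457740_at had 0.027, near 500 alone Cry2 had -0.10, and near 500 with centring Cry1 had 0.18, Nr1d2 1416958_at 0.14 and Nr1d2 1416959_at 0.022. When 1 array was left out Arntl 1457740_at ran from -0.52 to 0.27, Nr1d1 from -0.25 to 0.17, Nr1d2 1416959_at from -0.17 to 0.030 and Cry2 from -0.10 to 0.12. Of the 23 clock probe sets 5 lay under the array median on at least 1 array, all of them of Per2 or Per3.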
